A study of Mus musculus with 6 samples.

Results

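The 36 genes described here are cell cycle genes, chosen by name: 24 act in mitosis and its preparation (Mki67, Top2a, Cdk1, Ccnb1, Ccnb2, Ccna2, Birc5, Ube2c, Aurka, Aurkb, Plk1, Bub1, Bub1b, Cenpa, Cenpe, Cenpf, Tpx2, Kif11, Kif20a, Kif23, Nusap1, Prc1, Cdc20 and Hmmr) and 12 act in DNA replication (Pcna, Mcm2 to Mcm7, Rrm1, Rrm2, Tyms, Gins2 and Uhrf1). They are 36 of 19069 genes listed on the plates. Their transcripts were counted in single cells sorted from mouse colon tumors to enrich for fibroblasts. Of 1233 kept wells, neutrophil and epithelial ones included, 113 (9.16%) held a transcript of 5 or more of the 36 genes. Wells were kept with 100 to 6000 genes and less than 10% mitochondrial transcripts, from 2304 wells in all, and a gene absent from a plate's list was counted as 0.

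Tumors were induced, per the study's methods, with the carcinogen azoxymethane (AOM) followed by cycles of the colitis-inducing agent dextran sulfate sodium (DSS), and were taken at the end of this protocol or at an ethical endpoint. All mice belonged to a conditional Zeb1 line. The 3 FibΔZeb1 mice (plates 2, 5 and 6) carried the Col6a1-Cre transgene, which deletes Zeb1, a transcription factor of epithelial-mesenchymal transition, in the mesenchymal cells that express this constitutive Cre, and the 3 FibCtrl mice (plates 1, 3 and 4) were littermates without Cre, of matched age and either sex. Single viable cells negative for EPCAM, CD45 and CD31 were sorted, 1 cell per well, and sequenced by SORT-seq, which counts the 3′ ends of transcripts; with 6 plates for 3 mice per genotype, each plate was taken as 1 mouse, and wells of a mouse are not replicates.

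Cells divide in an ordered cycle. Before DNA is copied, transcription factors of the E2F family switch on replication genes. Among them are genes for the replicative helicase (the Mcm proteins), the clamp of the DNA polymerases (Pcna) and the enzymes that supply nucleotides (Rrm1, Rrm2, Tyms). Later, genes for cyclins, spindle proteins and centromere proteins rise together, in part through the activator NF-Y, which binds CCAAT boxes. They are repressed again when a cell rests, largely through the DREAM complex, which binds a promoter element called CHR. Resting cells keep a low level of some replication genes, Pcna among them, because DNA repair uses them too.

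The following promoters belong to the 2 mitotic and 2 replication members with the most transcripts in the 7 fibroblast wells with 10 or more members described further on, among those whose window lies wholly before the annotated gene, with Mcm5 added as the next one that holds an E2F match. The windows of Pcna, Cenpa and Rrm2, which had more transcripts than some of those shown, reached into the annotated gene and are not printed. Each sequence is the 250 bases before the RefSeq start of the gene on GRCm38.p6, written 5′ to 3′ on the gene's strand, and capitals mark letters that match a CCAAT box, an E2F element or a CHR on either strand. CCAAT boxes were searched by those same letters, E2F elements as TTTGGCGC, as TTTCCCGC and as TTTCGCGC, and CHR elements as TTTGAA.
Ccnb2 (chr9:70421555-70421804, minus strand): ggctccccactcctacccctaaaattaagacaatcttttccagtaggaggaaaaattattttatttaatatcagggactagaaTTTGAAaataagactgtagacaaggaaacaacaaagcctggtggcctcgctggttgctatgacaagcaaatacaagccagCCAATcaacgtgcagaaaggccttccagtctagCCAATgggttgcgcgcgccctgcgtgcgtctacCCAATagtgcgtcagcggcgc
Mki67 (chr7:135716380-135716629, minus strand): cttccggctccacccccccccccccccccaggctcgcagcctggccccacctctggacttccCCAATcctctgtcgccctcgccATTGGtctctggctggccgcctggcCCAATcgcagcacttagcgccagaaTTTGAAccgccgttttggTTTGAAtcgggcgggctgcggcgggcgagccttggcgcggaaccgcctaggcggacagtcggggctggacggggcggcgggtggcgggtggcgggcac
Rrm1 (chr7:102441445-102441694, plus strand): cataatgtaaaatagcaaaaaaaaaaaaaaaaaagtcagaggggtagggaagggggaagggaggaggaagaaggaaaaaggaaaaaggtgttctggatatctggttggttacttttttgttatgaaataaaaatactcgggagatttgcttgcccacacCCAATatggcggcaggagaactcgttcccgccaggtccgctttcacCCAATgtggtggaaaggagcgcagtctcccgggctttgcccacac
Mcm6 (chr1:128359706-128359955, minus strand): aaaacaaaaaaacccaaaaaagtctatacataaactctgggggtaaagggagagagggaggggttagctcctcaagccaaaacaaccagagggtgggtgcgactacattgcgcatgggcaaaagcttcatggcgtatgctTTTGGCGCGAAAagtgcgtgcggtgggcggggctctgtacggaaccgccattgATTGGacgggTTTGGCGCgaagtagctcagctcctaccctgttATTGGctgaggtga
Mcm5 (chr8:75109259-75109508, plus strand): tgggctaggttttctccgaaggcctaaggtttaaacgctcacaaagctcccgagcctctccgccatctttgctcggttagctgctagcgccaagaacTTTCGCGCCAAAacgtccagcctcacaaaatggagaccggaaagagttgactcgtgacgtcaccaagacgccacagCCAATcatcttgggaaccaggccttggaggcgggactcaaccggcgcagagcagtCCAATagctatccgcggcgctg
The Ccnb2 window held 1 CHR and 3 CCAAT boxes, and the Mki67 window 2 CHR and 3 CCAAT boxes. Both had no E2F match. The Mcm6 window held 3 E2F matches, a pair of which overlap on opposite strands, and the Mcm5 window held 2 overlapping ones. All 5 windows carried at least 2 CCAAT boxes. A window was at hand for 30 of the 36 members, some with more than 1 start, which gave 33 windows. A CHR was found in 8 of 21 windows of mitotic members (38.1%), in 1 of 12 windows of replication members (8.33%) and in 16.0% of all 32851 gene windows. An E2F match was found in 1 of 21 mitotic windows (4.76%), in 4 of 12 replication windows (33.3%) and in 1.53% of all windows. With only 1 window per gene, Mcm5 and Mcm6 were the only replication members with an E2F match, and Cdk1 the only mitotic member. CCAAT boxes were in 19 of 21 (90.5%) and 11 of 12 (91.7%), against 33.8% of all windows. These are matches of letters, and binding was not measured.

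Cell types were assigned by a gate on marker genes: a well took the type with the largest share of its markers detected, with at least 3. This gave 568 fibroblast, 84 mural (pericyte-type), 74 epithelial, 446 neutrophil, 11 smooth muscle, 8 T cell and 3 glial wells, and left 39 wells without a type. In fibroblast wells the collagen gene Col1a1 was detected in 96.5% and the fibroblast receptor gene Pdgfra in 83.6%, with the epithelial Epcam in 3.87% and the neutrophil gene S100a8 in 18.8%. The sort should have removed neutrophils, and they still made up 9.29% (plate 1) to 85.5% (plate 3) of kept wells. Plate 3 therefore had 19 fibroblast wells and plate 6 had 15, against 59 to 182 on the others, and plate 6 was also sequenced in another run. Plates held 1575726 to 3699058 transcripts. Zeb1 was at 110, 105 and 97.2 CPM (transcripts scaled to a common total for the wells named) in fibroblast wells of FibCtrl plates 1, 3 and 4 and at 57.5, 67.6 and 65.7 CPM in FibΔZeb1 plates 2, 5 and 6, so the labels and the deleted gene match without overlap, although the transcript was not lost.

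A few wells went against their gate. Of the 568 fibroblast wells, 8 (plates 1, 2 and 5) held 10 or more transcripts of Krt5 and Krt14, keratins of basal and squamous epithelium. Their Col1a1 counts were 1 to 7.01 transcripts, against a median of 43.22 in the other 560, and their Pdgfra counts 0 to 2. Zeb1 was at 0 in all 8, but also in the 4 fibroblast wells with 10 or more members outside this group, so it does not tell these wells apart. These wells held 4 of the 63 fibroblast wells with 5 or more members and 3 of the 7 with 10 or more. The threshold was chosen after their values were seen, and results are given with and without these keratin wells.

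The members were detected together in large numbers in few cells. Only 25 wells held 10 or more members: 9 epithelial, 7 fibroblast, 6 mural, 1 neutrophil, 1 T cell and 1 without a type. The fibroblast well with the most, on plate 5, had 33 members and 241.33 member transcripts, led by the DNA topoisomerase Top2a (26.08) and the proliferation marker Mki67 (21.05). It was a keratin well, with 24.07 Krt5, 2 Col1a1 and 0 Pdgfra transcripts. The keratin well of plate 1 with 15 members was led by Pcna (22.06) and the ribonucleotide reductase subunit Rrm2 (13.02), and that of plate 5 with 10 members by Pcna (7.01).

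Without keratin wells, 4 of 560 fibroblast wells (0.714%, exact 95% confidence interval 0.195 to 1.82%) held 10 or more members. All 4 had no Krt5, Krt14, Epcam, Ptprc or Zeb1 transcript. They had 18.04 to 45.24 Pdgfra and 95.08 to 270.72 Col1a1 transcripts, so they carried fibroblast genes together with the members. A well on plate 1 had 26 members and 100.05 member transcripts, led by the spindle proteins Tpx2 and Hmmr (10.01 each) and by cyclin A2 (Ccna2), cyclin B2 (Ccnb2) and survivin (Birc5) with 9.01 each. Another on plate 1 had 13 members and 39.02 transcripts, of which 13.02 were Ccnb2 and 6 the centromere histone Cenpa. A well on plate 2 had 19 members and 55.03 transcripts, 16.03 of them Ccnb2. The 1 on plate 4 was of the other kind: 10 of its 12 members were replication genes, with Pcna at 6, Mcm7 at 5 and Mcm3, Mcm5 and Rrm1 at 4 transcripts each. Mitotic members thus led in 3 of these wells and replication members in 1.

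**Figure D1:**
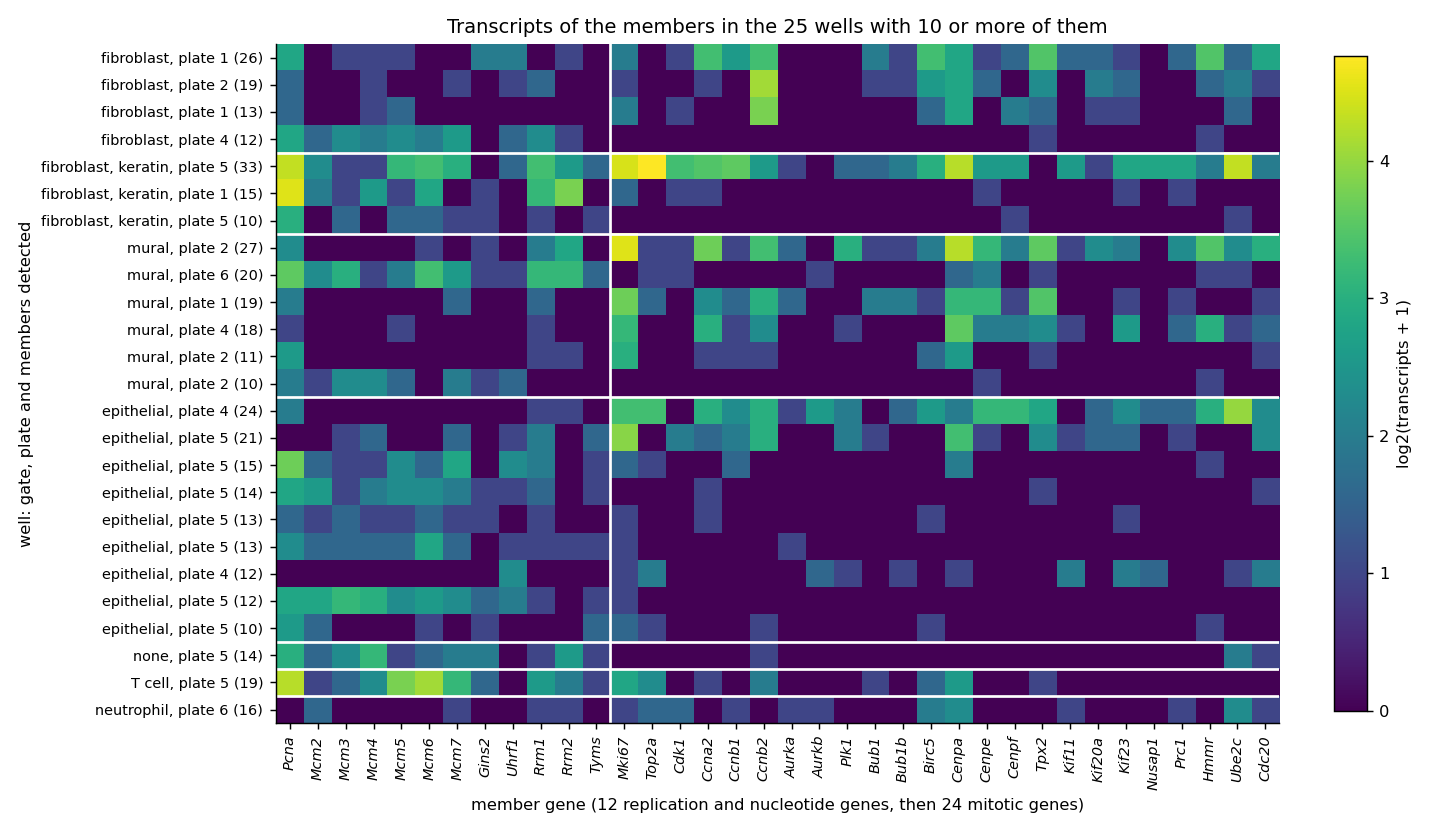
Heat map of the 25 wells with 10 or more members (rows, grouped by gated cell type) against the 36 members (columns), with colour for log2(transcripts + 1). The 4 fibroblast wells without keratin fall into 3 led by mitotic members and 1, on plate 4, led by replication members.

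Of the 6 mural wells with 10 or more members, 4 had more mitotic than replication members. The strongest, on plate 2, had 27 members and 148.18 transcripts, with Mki67 at 22.06, Cenpa at 18.04 and Ccna2 at 12.02. Their marker Rgs5 was at 5 to 46.25 transcripts, with Krt5 and Krt14 at 0. Of the 9 epithelial wells, 7 were on plate 5 and all of those held Krt14, at 17.03 to 90.99 transcripts. The 2 on plate 4 had neither Krt5 nor Krt14, and 1 of them, with Krt8 at 42.21 and Epcam at 9.01, had 24 members led by the ubiquitin-conjugating enzyme Ube2c (15.03).

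At the lower threshold of 5 members, epithelial and mural wells were ahead of fibroblast wells, and neutrophil wells were nearly empty. Pooled over plates, 63 of 568 fibroblast wells (11.1%, exact interval 8.63 to 13.97%) held 5 or more members, as did 18 of 84 mural wells (21.4%), 26 of 74 epithelial wells (35.1%, of which 15 of 22 on plate 5) and 2 of 446 neutrophil wells (0.448%). Smooth muscle had 0 of 11, which allows a share of up to 27.3%, T cells 1 of 8, glial cells 1 of 3 and untyped wells 2 of 39. Intervals and limits cover counting error only. The fibroblast share was 9.34, 15.8 and 11.9% on FibCtrl plates 1, 3 and 4 and 11.98, 9.52 and 26.7% on FibΔZeb1 plates 2, 5 and 6, where the highest rests on 4 of 15 wells. It was 10.5% (59 of 560) without keratin wells.

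Fibroblasts were compared with neutrophils, short-lived cells that have left the cycle, as the background. The share of wells with 5 or more members was higher in fibroblasts in 6 of 6 mice, by 13.7 ± 6.25 percentage points (SD, n = 6), with an exact two-sided sign-flip permutation p = 0.03125, the smallest that 6 mice allow, and 0.09375 after Benjamini-Hochberg adjustment over 3 cell type comparisons, which misses the threshold of 0.05. It was 13.3 points without keratin wells. Depth differed between the types. Fibroblast wells had a median of 11532 transcripts and neutrophil wells of 1442, and with every well thinned to 1000 barcodes and 3 or more members required, 5 of 540 fibroblast (0.926%) and 3 of 314 neutrophil wells (0.955%) remained, a difference of 0.808 points per mouse that was positive in 3 of 6 mice (p = 0.375, exact permutation). Without thinning, 3 or more members gave 48.7 points (p = 0.03125, exact permutation). Thinning left out 28 fibroblast and 132 neutrophil wells with fewer barcodes. Mural wells kept 6 of 84 (7.14%) and epithelial wells 6 of 71 (8.45%) after the same thinning. With 10 members as the threshold the fibroblast share was higher than the neutrophil share by 0.687 points (p = 0.1875, exact permutation).

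**Figure D2:**
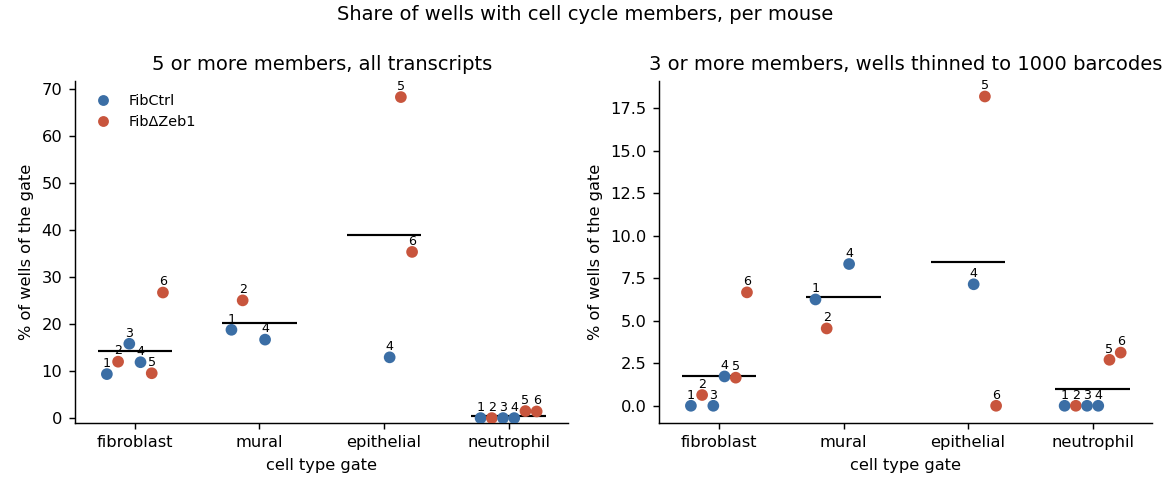
Percent of wells of a cell type with 5 or more members (left) and, after thinning to 1000 barcodes, with 3 or more members (right), 1 point per mouse with 10 or more wells of the type, numbered by plate, with a line at the mean. Fibroblasts lie above neutrophils on every plate on the left, while after thinning the pooled shares are 0.926 and 0.955%.

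Against mural wells, the fibroblast share was lower by 9.08 ± 4.12 points on the 3 plates with 10 or more wells of both types (1, 2 and 4), in 3 of 3 mice. Against epithelial wells it was lower by 22.8 ± 31.3 points on plates 4, 5 and 6, again in 3 of 3 mice, but by 4.83 points without plate 5. Both had p = 0.25 in the exact permutation test, the smallest that 3 mice allow, so neither could pass. At 3 or more members the differences were -8.84 and -4.76 points, with fibroblasts higher in 1 of 3 and in 2 of 3 mice, and at 8 or more members fibroblasts were above epithelial wells in 1 of 3 mice. Without keratin wells the differences were -9.35 and -23.2 points.

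Depth moved with the share within fibroblasts too. In the tertile of fibroblast wells with the fewest transcripts, 4 of 189 (2.12%) held 5 or more members, in the middle tertile 20 of 190 (10.5%) and in the deepest 39 of 189 (20.6%), while the summed member level was 361, 327 and 378 CPM. Of the 63 fibroblast wells, 34 had exactly 5 members, with a median of 383 member CPM, and the 64 wells just outside with 4 had 349. Wells with 5 or more members had a median of 17192 transcripts against 10990 in the others. Most were rich in replication genes: 46 of 63 had more replication than mitotic members and 12 the reverse. Mitotic members gave 28.8% of member transcripts in wells with 5 to 9 members, near the 20.9% in wells with fewer, and 63.0% in wells with 10 or more.

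**Figure D3:**
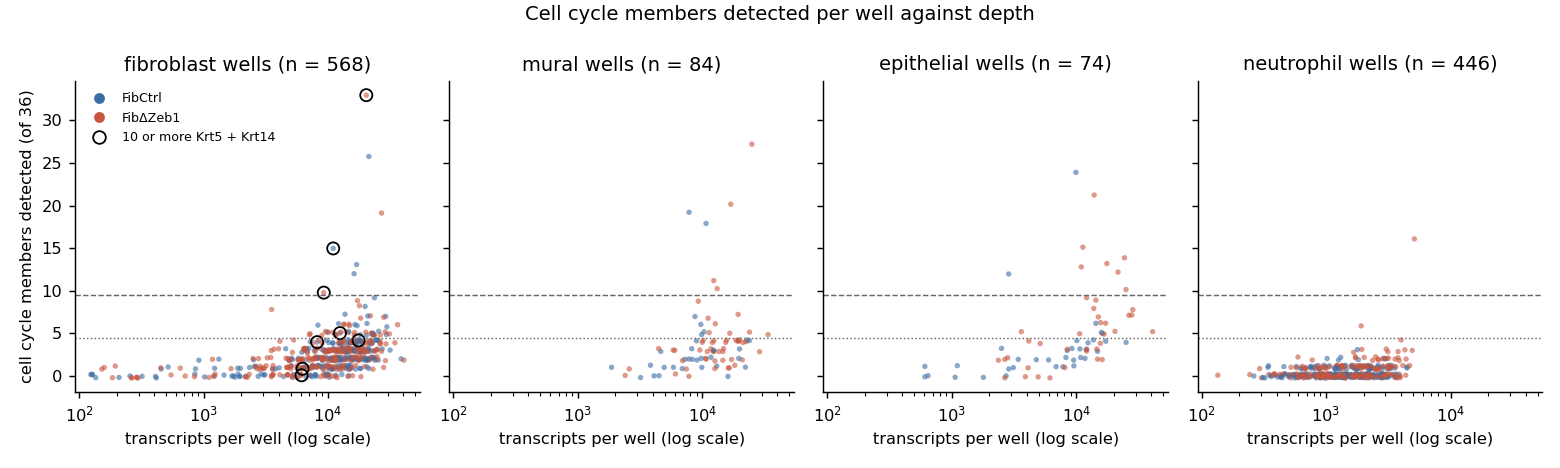
Number of members detected against transcripts per well (log axis) in fibroblast, mural, epithelial and neutrophil wells, with lines at 5 and 10 members and circles around wells with 10 or more Krt5 and Krt14 transcripts. Members rise gradually with depth in fibroblasts and few wells, 3 of the 7 at 10 or more being circled, leave that trend.

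Genes that did not choose the wells separated the same way. A list of 42 other late cycle genes, such as the tubulin regulator Stmn1, the histone H2afz and the cytokinesis protein Anln, summed to 1189 CPM in fibroblast wells with 0 to 4 members (501 wells without keratin), 1223 CPM with 5 to 9 (55 wells) and 4552 CPM with 10 or more (4 wells). Per mouse, wells with 5 to 9 members had 1257 ± 104 CPM against 1200 ± 117 in wells with fewer (SD, n = 6) and were higher in 4 of 6 mice. Wells with 10 or more were higher in 3 of 3 mice, at 5692, 4627 and 1734 CPM on plates 1, 2 and 4. Tuba1b, Tubb5 and H2afz, which resting cells express too, made up 959 of the 1189 CPM. The other 39 genes, split off after seeing the values, had 230, 222 and 2688 CPM, and with 5 to 9 members they were at 232 ± 39.0 against 248 ± 38.2 CPM per mouse (SD, n = 6) and higher in 3 of 6 mice. Of the 42 genes, 16 were higher and 22 lower with 5 to 9 than with 0 to 4 members, and 31 were higher and 8 lower with 10 or more. The name cycling is not used here for wells with 5 or more members. With keratin wells included the 3 values were 1192, 1219 and 7876 CPM. A list of 21 other DNA synthesis genes had 159, 175 and 530 CPM. Per mouse it was at 198 ± 62.7 CPM with 5 to 9 members and 164 ± 13.7 CPM with fewer, higher in 4 of 6 mice, with 301 against 168 CPM on plate 3, and 13 of the 21 genes were higher and 8 lower. With 10 or more members the highest level, 1610 CPM, was in the plate 4 well led by replication members, against 288 and 223 CPM on plates 1 and 2.

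Some single genes, picked after their values were seen, follow. Stmn1 was at 15.2 CPM with 0 to 4 members, 12 with 5 to 9 and 370 with 10 or more. Anln was at 3.2, 1.0 and 272 CPM, the centralspindlin subunit Racgap1 at 0.881, 2.0 and 173 CPM, the cyclin kinase subunit Cks2 at 13.7, 11 and 222 CPM, and Foxm1, a transcription factor of mitotic genes, at 4.41, 1.0 and 86.2 CPM. The values of Anln and Foxm1 with 5 to 9 members rest on 1 transcript each. Foxm1 came from a list of 22 genes of cell cycle entry that mostly did not follow it. With 10 or more members, 11 of these genes were higher and 10 lower than with 0 to 4. The sum of that list was 531, 531 and 752 CPM, and with 10 or more members it was higher in 1 of 3 mice. H2afz was at 183, 201 and 840 CPM. A list of 17 cell cycle inhibitors went from 2198 through 2006 to 1369 CPM, 12 inflammatory fibroblast genes from 8646 through 8408 to 3446 CPM, with complement C3 at 3370, 2934 and 136 CPM, and 8 contractile genes from 1995 through 2658 to 6927 CPM. These sums differed by plate. With 10 or more members against 0 to 4, inflammatory genes were at 1682 against 13073 CPM on plate 1 and 2175 against 4833 CPM on plate 4, but at 6718 against 5945 CPM on plate 2, and inhibitors were at 891 against 2344, 1426 against 1861 and 2015 against 1880 CPM on plates 1, 4 and 2. Contractile genes were higher on all 3 plates. The values for 10 or more members rest on 4 wells and are a description. All 4 passed the gate for telocytes, a fibroblast subtype described further on, while the wells with fewer members were of mixed subtypes. The part of subtype in these differences was not tested. Mural wells had 1160, 1556 and 5795 CPM and epithelial wells 1545, 1573 and 4119 CPM of the late cycle list.

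**Figure D4:**
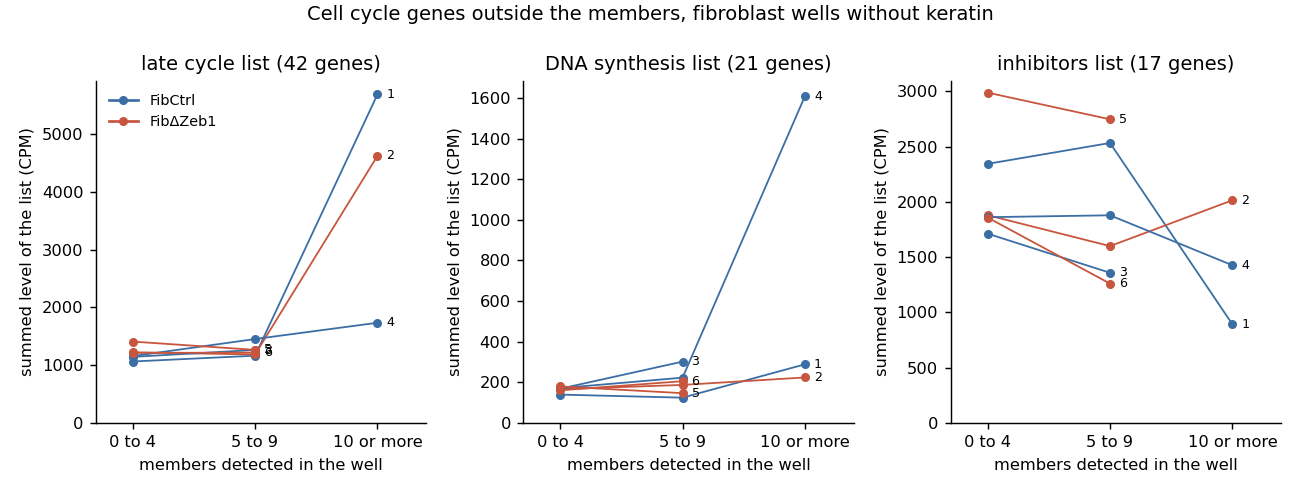
Summed level (CPM) of 42 late cycle, 21 DNA synthesis and 17 inhibitor genes outside the members in fibroblast wells without keratin, by the number of members detected, with 1 point per mouse. Wells with 5 to 9 members overlap those with 0 to 4 in late cycle genes (1257 ± 104 and 1200 ± 117 CPM), and the 3 mice with 10 or more members lie above them.

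Genes outside the members were then tested across the whole table, with sums per mouse and the mouse as a block. Of 4495 genes, 0 were higher (0%) and 0 lower (0%) in fibroblast wells with 5 or more members (edgeR quasi-likelihood test, Benjamini-Hochberg adjusted), with 235 at an unadjusted p under 0.05, and DESeq2 called 1, Cxcl13, a B cell chemokine (log2 fold change -2.11). Of the lists, 4 late cycle, 1 DNA synthesis and 12 inhibitor genes passed the filter on low counts, and 0 of them were called. Without the filter 79 of 16406 were called, 16 higher (0.0975%) and 63 lower (0.384%), and among those higher were 5 of the 42 late cycle genes: Stmn1 by 2.41, Hmgb2 by 1.42, Cdca3 by 3.87, Racgap1 by 3.86 and Pbk by 5.62 on the log2 scale. Krt5 was also among them, at 2.47, and 0 of 21 DNA synthesis and 0 of 16 inhibitor genes were called. Without keratin wells it was 60 of 16307, 7 higher (0.0429%) and 53 lower (0.325%), with 0 of the 40 late cycle genes left to test, and 57 of the calls were shared. At 8 or more members 31 of 2223 genes were lower (1.39%) and 0 higher (0%). The 10 with the largest fall included the long noncoding RNA Meg3 (-4.13), the complement regulator Cd55 (-4.13), the Wnt modulator Sfrp2 (-3.51), the chemokine Cxcl13 (-3.44) and Ptgs2, which makes prostaglandins (-3.36), each lower in 5 of 5 mice and with edgeR adjusted p of 0.0159 to 0.0314. Without keratin wells 0 of 2234 were called, in a fit with 9 in place of 12 wells that held 8 or more members and 4 in place of 5 mice, since plate 5 dropped out. On plates 2, 4 and 6, where none of those wells was a keratin well, Meg3 and Cd55 were at 0 CPM against 186 to 989 CPM in the other wells. Sfrp2 was at 22.4, 0 and 48.4 against 516, 279 and 452 CPM. These low values rest on only 2, 1 and 2 wells. Plate 1 had 5 such wells, 4 of them not keratin wells. Over these 5, Meg3 was at 141 against 697 CPM, Cd55 at 152 against 614 CPM and Sfrp2 at 86.8 against 542 CPM. Most wells with 8 or more members passed the telocyte gate, and Sfrp2 and Cxcl13 are markers of another fibroblast subtype gate. The part of subtype in these falls was not tested.

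The 4 fibroblast wells with 10 or more members all fell into a subtype gate for telocytes, slender Pdgfra-high cells beneath the epithelium. This gate used marker lists from earlier results on these data and needed 2 of 6 markers. It was not specific to Pdgfra-high cells, since some keratin wells with 0 Pdgfra transcripts and some epithelial wells passed it too. Without keratin wells, 4 of 144 telocyte-gated and 0 of 416 other fibroblast wells held 10 or more members, and 27 of 144 (18.8%) and 32 of 416 (7.69%) held 5 or more. The summed member level was 399 and 271 CPM, and the median depth 15042 and 10707 transcripts. By plate the telocyte-gated and other shares with 5 or more were 28.1 and 4.08% on plate 1, 18.4 and 9.48% on plate 2, 15.4 and 5% on plate 4 and 28.6 and 25% on plate 6, but 11.1 and 20% on plate 3 and 0 and 8.70% on plate 5, where the order was the reverse. These are counts with no test.

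Among the members, replication genes were detected widely and mitotic genes rarely. Pcna had a transcript in 62.3% of the 568 fibroblast wells, Mcm4 in 117 of them, Mcm6 in 110, Rrm1 in 98, Mcm7 in 74 and Tyms in 59, and of the mitotic genes only Mki67 (84), Hmmr (83) and Ube2c (44) came near. The cyclin Ccnb1 was found in 3 wells, the checkpoint kinase Bub1 in 4, the kinesin Kif20a in 6, and Aurkb, the kinase of the chromosomal passenger complex, in 0. The 7 wells with 10 or more members, keratin wells included, held 94.1% of Ccnb1, 85.7% of Bub1, 77.8% of Kif20a, 75.0% of Cenpa and 74.2% of Ccnb2 transcripts but 8.49% of Pcna and 4.76% of Tyms transcripts. Mki67 was spread more evenly, with 23.3% of its transcripts there and 62 of its 84 wells below 5 members.

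Summed levels, which need no threshold on wells, split by role. The 12 replication members were at 273 ± 71.4 CPM in fibroblasts and 92.8 ± 46.8 CPM in neutrophils (SD, n = 6) and were higher in 6 of 6 mice. The 24 mitotic members went the other way, at 116 ± 73.3 and 247 ± 102 CPM, lower in fibroblasts in 6 of 6 mice. The sum of all 36 was 389 ± 118 and 339 ± 144 CPM, higher in 6 of 6. Each had an exact permutation p = 0.03125, and 0.09375 after adjustment over 9 tests. In neutrophils Kif23, a kinesin of cytokinesis, gave 55 of the 254 member transcripts and was detected in 46 of 446 wells. By plate Kif23 was at 96.7, 73.2, 42.9, 31.8, 118 and 103 CPM in neutrophils (plates 1 to 6) and at 2.72, 1.69, 0, 0, 7.51 and 0 CPM in fibroblasts, without overlap. Without Kif23 the mitotic sum was 114 ± 70.7 and 169 ± 75.0 CPM, still lower in fibroblasts in 6 of 6 mice. The neutrophil sums rest on few transcripts: with Kif23, mitotic members had 9, 20, 51, 5, 32 and 69 on plates 1 to 6. On plate 6, 1 neutrophil well with 16 members held 27 of the 93 member transcripts. Mural wells had 493 ± 95.1 CPM of mitotic members against 80.6 ± 32.7 CPM in fibroblasts of the same 3 mice (p = 0.25, exact permutation, the smallest possible), and 266 ± 68.2 against 248 ± 55.2 CPM of replication members.

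The genotype comparison asked whether loss of Zeb1 in fibroblasts moved the members. Over all kept wells the share with 5 or more members was 6.89 ± 4.02% in FibCtrl and 11.5 ± 1.45% in FibΔZeb1 (SD, n = 3 mice each), with 8.85, 2.26 and 9.56% on plates 1, 3 and 4 and 10.4, 13.2 and 11.01% on plates 2, 5 and 6. The groups did not overlap, the difference was 4.64 points, and p = 0.10 was the smallest an exact permutation test allows here (0.3 adjusted over 3 tests). Without plate 3 the difference was 2.32 points. At 3 or more members it was 7.70 points (p = 0.70) and at 8 or more 2.09 points (p = 0.30), in exact permutation tests, and with a mitochondrial limit of 30% it was 4.47 points (p = 0.40, exact permutation), so that the groups overlapped in all 3. The lowest value was on plate 3, where 85.5% of wells were neutrophils. Of the wells with 5 or more members, 15 of 32 on plate 5 and 6 of 12 on plate 6 were epithelial. On FibCtrl plates 1, 3 and 4 these were 0 of 20, 1 of 5 and 4 of 13, and plate 2 held no epithelial well. The part of the neutrophil and epithelial shares in this genotype difference was not tested beyond the fibroblast wells that follow. Within fibroblast wells the groups overlapped, at 12.3 ± 3.25 and 16.1 ± 9.27%, a difference of 3.72 points (p = 0.60, exact permutation, 0.6 adjusted) that was -1.58 points without plate 6 and -0.386 points at 10 or more members. It was 3.63 points without keratin wells.

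The summed member level in fibroblast wells was 341, 276 and 363 CPM on FibCtrl plates 1, 3 and 4 and 284, 548 and 522 CPM on FibΔZeb1 plates 2, 5 and 6. The groups overlapped, since plate 2 lay below plates 1 and 4. The means were 327 ± 44.9 and 451 ± 146 CPM, a difference of 125 CPM (p = 0.30, exact permutation, 0.45 adjusted). It was 209 CPM without plate 2 and 76.1 CPM without plate 5. With each well given equal weight it was 174 CPM, and the groups no longer overlapped (p = 0.10, the smallest the exact permutation test allows). Without keratin wells plate 5 was at 315 CPM and the difference was 57.3 CPM (p = 0.60, exact permutation).

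**Figure D5:**
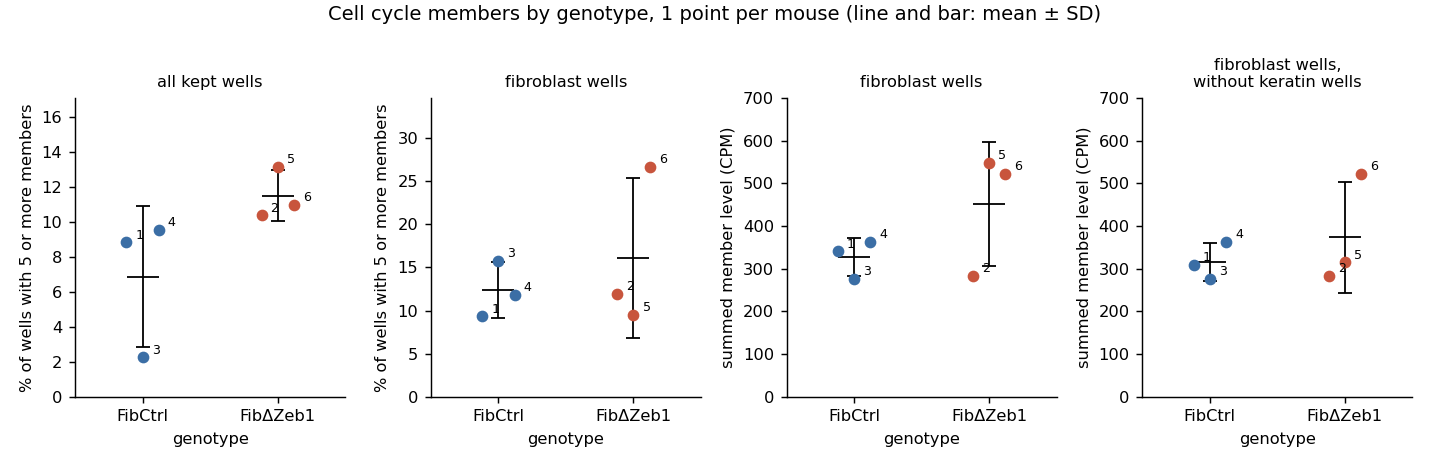
Comparison of FibCtrl and FibΔZeb1, 1 point per mouse with mean ± SD (n = 3): percent of all kept wells and of fibroblast wells with 5 or more members, and summed member CPM in fibroblast wells with and without keratin wells. The genotypes are apart in the first panel only (6.89 ± 4.02 and 11.5 ± 1.45%).

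Gene by gene, 0 of 36 members had genotypes that did not overlap in fibroblast wells, where 5.44% of 16441 genes did not overlap (2.54% with FibΔZeb1 higher and 2.9% with FibCtrl higher). In the edgeR test, 0 of 8706 genes were called (0%), with 126 at an unadjusted p under 0.05, and DESeq2 called 1, Procr. Only 9 members passed the filter on low counts, 8 of them with a positive log2 fold change, as had 4458 of all 8706 genes tested. The median of the 9 was 0.26 against 0.01 over all genes, and the edgeR adjusted p was 0.999816 for each of the 9. Pcna was at 110, 85.9 and 98.6 CPM in FibCtrl and 98.2, 146 and 136 CPM in FibΔZeb1 (log2 fold change 0.37 ± 0.24, SE). Mki67 was at 21.3, 11.2 and 8.57 CPM and at 12.7, 34.8 and 24.7 CPM (0.60 ± 0.53). Mcm6 was at 19.9, 29.9 and 71.5 CPM and at 19.9, 26.3 and 136 CPM, so that plates 4 and 6 stood above the rest in both genotypes (0.26 ± 0.76). The values of plates 4 and 6 rest on 50.01 and 33.07 Mcm6 transcripts in 59 and 15 wells. Ube2c had the largest difference of the 9 (1.18 ± 0.75), from 7.25, 14.9 and 5.72 CPM to 5.08, 30.1 and 24.7 CPM. Mcm7 was at 0.66 ± 0.46, Rrm1 at 0.10 ± 0.35, Hmmr at 0.06 ± 0.40, Mcm4 at 0.03 ± 0.30 and Mcm2 at -0.33 ± 0.59. Without keratin wells the log2 fold change was 0.07 for Mki67 and 0.39 for Ube2c. None of the 9 passed the test.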

How the data were processed

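Single cells of 6 plates were analysed. The authors, with their sequencing provider, aligned reads with BWA to the Ensembl transcriptome of GRCm38 and deposited barcode counts and transcript counts, which are estimated counts corrected for barcodes that coincide. The deposited values were not normalized further. Cell Ranger 2.1.1 is also listed in the submitters' processing notes. Spike-ins (7.85 to 18.6% of a plate) were left out.

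Plates were grouped by the genotype given with each sample. The deposited estimated counts were used per well. A well needed 100 to 6000 genes and a mitochondrial share below 10%. Levels are CPM of all transcripts in the wells named. CPM are not divided by gene length. The deposited barcode counts served for thinning to 1000 per well. Wells carry the same 384 numbers on every plate, so a cell is named by plate and well. Wells were sorted singly and no doublet caller was run. Shares carry exact (Clopper-Pearson) 95% intervals, and the limit for a share of 0 is 3 counts of the total. Mice were the unit of every test: shares and summed levels went into exact permutation tests (two-sided; sign flips within mice between cell types), and rounded sums per mouse into the quasi-likelihood test of edgeR 4.0.16 with filterByExpr and TMM factors, in R 4.3.3, at an adjusted p of 0.05, with DESeq2 1.42.0 as an alternative, and the scripts were tested on simulated data. Other alternatives were the gate, the member threshold, the mitochondrial limit, low-count filters, size factors, omission of each mouse and of keratin wells. Promoter windows are from RefSeq.

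The members, marker and gene lists were chosen with earlier results of these data known. Named genes are the 36 members, the 10 largest rises and falls among called genes, and called or singled-out list members. Stmn1, Anln, Racgap1, Cks2, Foxm1, H2afz and C3 were picked from the lists after their values were seen, as was the keratin threshold, and the gate's scoring was set with the files at hand.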

Additional observations from a re-analysis of the deposited data

Results flagged for a closer look

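Wells with 10 to 30% mitochondrial transcripts were left out of all comparisons above and were looked at because a signal appeared in unused data. They numbered 740, of which 299 passed the fibroblast gate. Among these, 21 (7.02%) held 5 or more members, and 3 held 10 or more. The share in the kept fibroblast wells was 11.1%, at a median of 11532 transcripts against 4635 in the 299 wells. Their keratin transcripts were not examined.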

How the results depend on the processing

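Of the alternative values for the comparisons, 88 kept their direction and their side of an unadjusted p of 0.05, 2 turned and 5 counts moved. The genotype shares and levels, and the comparisons with mural and epithelial wells over 3 mice, could not pass that threshold, so their side of it says nothing of stability. The difference between fibroblasts and neutrophils in wells with 5 or more members was 11.4 to 14.8 points with 1 mouse left out, where the smallest p possible is 0.0625, 3.19 points at 8 or more members, 0.687 at 10 or more and 0.808 after thinning, and in these 9 settings the unadjusted p was no longer under 0.05. The genotype difference in the fibroblast share was -1.58 to 6.99 points with 1 mouse left out, negative without FibΔZeb1 replicate 3 (plate 6), and -0.386 at 10 or more members. For genes outside the members, the count of calls was 31 at 8 or more members, 79 without a filter on low counts, 60 without that filter and without keratin wells, and 1 with DESeq2. For member genes by genotype DESeq2 called 1 gene. Of the named members, with 1 mouse left out the log2 fold change was -0.72 to 1.01 for Mcm6, -0.088 to 0.48 for Hmmr, -0.10 to 0.13 for Mcm4 and -0.22 to 0.43 for Rrm1, and Hmmr was at -0.17 over all wells without Ptprc or Epcam. The cause of these changes was not tested, except that fewer mice raise the smallest p. The threshold of 10 members, that of 8 members for genes outside the members, and the omission of keratin wells were chosen after seeing the data. No paired analysis was possible because the replicate numbers were given in accession order and mark no shared litter, batch or day. Low counts kept 27 of 36 members out of the test by gene.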
